A study of Mus musculus with 7 samples.

Results

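Ovaries of fertile Abcg5/Abcg8 knockout mice on a diet labelled VOFD were compared with ovaries of fertile wild type mice on a diet labelled CD, to describe what differed between ovaries that were both fertile. The comparison used 4 of the 7 libraries of the series: 2 from knockout mice titled as VOFD-fed and fertile, and 2 from wild type mice titled as CD-fed and fertile. The other 3 libraries came from infertile knockout mice on CD, and their values are given beside the others without entering the test. All ovaries were from female mice aged 8 to 12 weeks, and each ovary was homogenised on its own. The sources used here give neither the strain, the extent of the deletion, the number of animals behind a library nor the full diet names. The 3 groups are called wild type (on CD), fertile knockout (on VOFD) and infertile knockout (on CD) below, and WT CD, KO VOFD and KO CD in the figures. No wild type library on VOFD was analysed here, so genotype and diet cannot be told apart in any difference below. With 2 libraries a group and no statement that they came from separate animals, p-values reflect only how far these samples differ, and that spread may be technical.

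Levels are in TPM, a length-scaled share of all transcripts in a library, so levels can be compared between genes. Genes with at least 1 TPM in at least 2 of the 4 libraries were tested, which were 14721 of 34866. Fold changes are differences in mean log2(TPM + 1), which understates the change of low genes, and a gene was called when its limma p-value, adjusted over all genes tested by Benjamini and Hochberg (BH), was under 0.05. TPM keeps no sequencing depth, so the depth of the libraries is unknown. For single genes, 2 against 2 libraries cannot reach an exact permutation p under 0.333.

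ABCG5 and ABCG8 together form a transporter that moves plant sterols and cholesterol out of cells of the intestine and liver, and its loss lets plant sterols build up in the body. Cells sense sterols through SREBP2, a factor that turns on cholesterol synthesis and LDL uptake when sterol is short, and through LXR, a receptor for oxidised sterols that turns on sterol export and fatty acid synthesis. Theca, granulosa and luteal cells of the ovary use cholesterol to make steroid hormones.

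Both targeted genes were near 0 in every library, so they do not check the genotype labels. Abcg5 (ENSMUSG00000040505.13, chromosome 17, 84658234 to 84683011 on GRCm38) was at 0.0767 and 0.149 TPM in wild type and at 0.156 and 0.212 TPM in fertile knockout. Abcg8 (ENSMUSG00000024254.15, chromosome 17, 84676302 to 84700333) was at 0.073 and 0.0423 TPM in wild type and listed at 0 in both fertile knockout libraries. Markers of granulosa, theca and luteal cells and of oocytes were present in all 4 libraries, with Amh at 57.8 to 178 TPM, Cyp17a1 at 131 to 186 TPM, Sfrp4 at 472 to 1068 TPM and Gdf9 at 85.7 to 129.7 TPM. The 4 libraries held between 14267 and 14692 genes at 1 TPM or more, and mitochondrially encoded transcripts made up 16.7% to 18.3% of TPM. The first principal component of the 4 held 43.2% of the variance and placed the wild type libraries at -28.5 and -11.2 and the knockout libraries at 21.9 and 17.8. The second held 36.4% and separated libraries within each group. The median absolute difference per gene on the log2 scale was 0.26 between the wild type libraries, 0.14 between the fertile knockout libraries and 0.14 between the group means. The last is a difference of means of 2 libraries, which vary less than single libraries, so it is not a like measure.

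Most of the genes called between fertile knockout and wild type ovaries were processed pseudogenes, or protein coding genes with a near-identical copy elsewhere in the genome. Of 14721 genes, 29 were called (0.197%), with 21 higher in fertile knockout (0.143%) and 8 lower (0.0543%). The filter of 1 TPM in 2 libraries lets a gene in through 1 group alone. Of the 29, 7 were listed at 0 in both wild type libraries and 1 at 0 in both fertile knockout libraries. The direction of such genes was set by how they entered, so the split of calls by direction is description only. Pseudogenes made up 21 of the 29 (18 higher, 3 lower), protein coding genes 7 (2 higher, 5 lower), and 1 was an immunoglobulin variable segment. A near-identical copy, meaning at least 95% identity over at least 80% of the shorter transcript, was annotated for 24 of the 29 (82.8%), against 1788 of all 14721 tested genes (12.1%). A fit without 1 library leaves 1 in its group, and without a fertile knockout library every gene took the common spread of all genes. The count rests on few libraries. It was 6 without wild type library 1, 5 without wild type library 2, 214 without fertile knockout library 1 and 159 without fertile knockout library 2, and of the 29 genes 6, 5, 29 and 29 remained called in these settings, in that order.

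**Figure D1:**
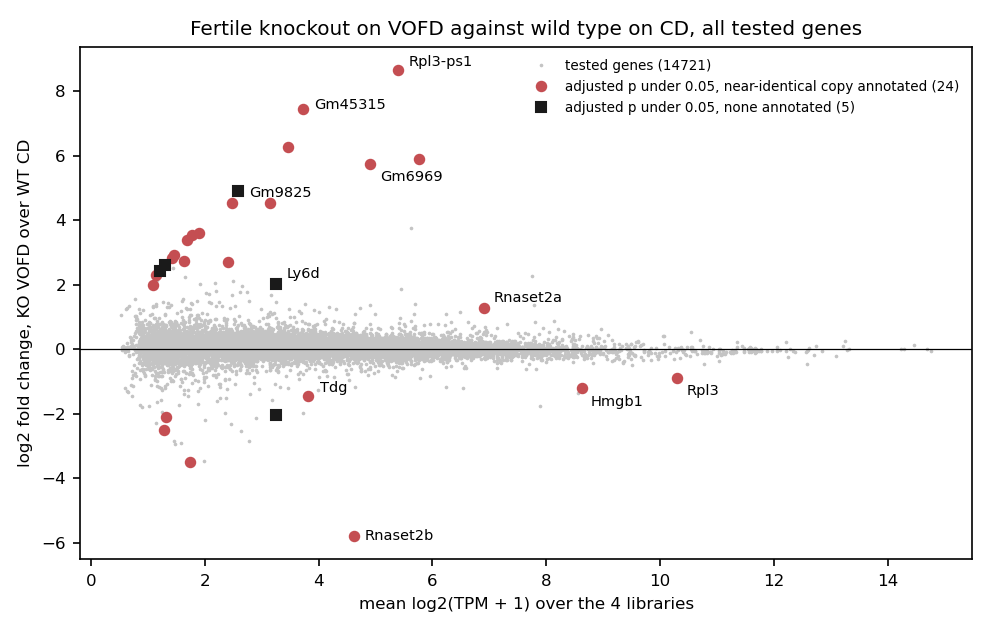
Log2 fold change of each tested gene (fertile knockout over wild type) against its mean log2(TPM + 1) over the 4 libraries. Grey points are the 14721 tested genes, red circles the 24 called genes with an annotated near-identical copy and black squares the 5 without, among which Ly6d is the protein coding gene.

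The sequences show how close a called gene and its called copy can be. Rpl3 and Rpl3-ps1 differed at 2 of 1209 aligned coding bases (99.83% identity), Tdg and Gm9855 at 9 of 1191 (99.24%), Hmgb1 and Gm45315 at 4 of 332 (98.8%), and Rnaset2a and Rnaset2b at 0 of 777. The stretches of 120 bases below come from GENCODE M21 transcripts on GRCm38, read 5′ to 3′ along the transcript, and capitals mark the bases that differ within a pair.
Rpl3, coding bases 726 to 845: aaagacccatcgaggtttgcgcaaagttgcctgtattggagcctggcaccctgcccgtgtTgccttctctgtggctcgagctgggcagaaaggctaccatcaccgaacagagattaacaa
Rpl3-ps1, transcript bases 727 to 846: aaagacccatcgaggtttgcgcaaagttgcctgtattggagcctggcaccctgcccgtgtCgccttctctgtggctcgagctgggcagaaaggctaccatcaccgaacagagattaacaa
Tdg, coding bases 993 to 1112: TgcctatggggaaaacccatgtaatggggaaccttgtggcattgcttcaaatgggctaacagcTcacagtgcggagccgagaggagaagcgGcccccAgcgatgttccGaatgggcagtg
Gm9855, transcript bases 993 to 1112: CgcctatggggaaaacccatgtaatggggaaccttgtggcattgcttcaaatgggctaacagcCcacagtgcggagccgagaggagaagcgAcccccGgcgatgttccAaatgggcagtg
Hmgb1, coding bases 519 to 638: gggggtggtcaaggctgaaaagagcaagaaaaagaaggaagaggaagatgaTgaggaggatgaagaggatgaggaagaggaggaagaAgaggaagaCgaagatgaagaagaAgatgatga
Gm45315, transcript bases 213 to 332: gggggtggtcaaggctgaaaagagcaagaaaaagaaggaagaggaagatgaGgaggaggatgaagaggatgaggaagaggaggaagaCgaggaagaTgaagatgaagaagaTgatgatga
Rnaset2a, coding bases 1 to 120, identical in Rnaset2b: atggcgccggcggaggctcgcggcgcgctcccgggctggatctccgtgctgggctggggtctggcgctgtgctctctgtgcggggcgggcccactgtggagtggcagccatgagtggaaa

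Rpl3, a protein gene of the large ribosomal subunit (ENSMUSG00000060036.14, chromosome 15, 80077791 to 80091868), was at 1734 and 1669.5 TPM in wild type and at 934 and 898 TPM in fertile knockout. Its processed pseudogene Rpl3-ps1 (chromosome X, 13202571 to 13203780) was at 1.06 and 1.13 TPM in wild type and at 852 and 835 TPM in fertile knockout. The parent was thus lower and the copy higher, with no overlap of the groups in either. The log2 fold change of Rpl3 was -0.89 (SE 0.10, limma adjusted p = 0.0221) and that of Rpl3-ps1 was 8.65 (SE 0.14, adjusted p = 3.48e-07). Summed over the pair, the level was 1735 and 1671 TPM in wild type and 1786 and 1733 TPM in fertile knockout (log2 fold change 0.05, adjusted p = 0.973 with copies summed), so the groups overlapped in the sum.

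Rnaset2a and Rnaset2b, a duplicated pair of genes for a lysosomal ribonuclease, differed in opposite directions. Rnaset2b (ENSMUSG00000094724.7, chromosome 17, 6970634 to 7011299) was at 185 and 178 TPM in wild type and at 1.41 and 3.55 TPM in fertile knockout (log2 fold change -5.78, SE 0.28, limma adjusted p = 2.00e-04). Rnaset2a (ENSMUSG00000095687.1, chromosome 17, 8115445 to 8148097) was at 72.8 and 78.2 TPM in wild type and at 184 and 186 TPM in fertile knockout (1.28, SE 0.12, adjusted p = 0.00807). Rnaset2b made up most of the pair's level in wild type and almost none of it in fertile knockout. Their sum was 258 and 257 TPM in wild type and 186 and 189.9 TPM in fertile knockout (log2 fold change -0.45, adjusted p = 0.486), without overlap but short of the threshold.

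Hmgb1, a chromatin protein gene (ENSMUSG00000066551.12, chromosome 5, 149046702 to 149184489), was at 598 and 597 TPM in wild type and at 233 and 293 TPM in fertile knockout (log2 fold change -1.19, SE 0.13, limma adjusted p = 0.0238). Its pseudogene Gm45315 was listed at 0 in both wild type libraries and at 242 and 127 TPM in fertile knockout. Hmgb1 had 42 annotated near-identical copies, and only tested ones whose best protein coding match was Hmgb1 were joined to it. Over the 7 genes of this family the sum was 847 and 892 TPM in wild type and 702 and 724 TPM in fertile knockout (-0.29, adjusted p = 0.815). Tdg, the thymine DNA glycosylase gene of base excision repair (ENSMUSG00000034674.18, chromosome 10, 82629828 to 82650799), was at 19.7 and 24.9 TPM in wild type and at 7.69 and 7.24 TPM in fertile knockout (-1.45, SE 0.19, adjusted p = 0.0483). Gm9855, its pseudogene on the same chromosome, was at 0.129 and 0 TPM in wild type and at 13.1 and 11.1 TPM in fertile knockout. Tdg and the copies joined to it in the same way summed to 19.8 and 24.9 TPM against 21.8 and 19.5 TPM (adjusted p = 0.970), which overlapped between the groups. Some of the alternatives below, such as those without a fertile knockout library, gave every gene the common spread of all genes. All 5 of Rpl3, Rnaset2a, Rnaset2b, Hmgb1 and Tdg lost the call without wild type library 1 or library 2, with adjusted p between 0.124 and 0.407. Over all alternatives their adjusted p ran from 2.55e-08 to 1.00 for Rpl3, from 1.87e-09 to 0.967 for Rnaset2a, from 3.95e-117 to 1.00 for Rnaset2b, from 1.83e-11 to 0.407 for Hmgb1 and from 2.26e-05 to 0.528 for Tdg.

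In other pairs the copy was called and the parent was not. Cox7a2l, a gene for a respiratory supercomplex factor (chromosome 17, 83501918 to 83517330), was at 323 and 312 TPM in wild type and 317 and 329 TPM in fertile knockout. Its pseudogene Gm6969 (chromosome 12, 24638669 to 24639010) was at 2.37 and 3.92 TPM in wild type and at 229 and 205 TPM in fertile knockout (log2 fold change 5.74, SE 0.21, limma adjusted p = 5.03e-05). Their sum was 325 and 316 TPM in wild type and 546 and 535 TPM in fertile knockout, which did not overlap but missed the threshold (0.75, adjusted p = 0.128). Atp6v0c, a proton pump subunit gene, was at 144 and 162 TPM in wild type and 127 and 113 TPM in fertile knockout, while Atp6v0c-ps2 was at 0 and 0.551 TPM against 101 and 91.9 TPM.

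**Figure D2:**
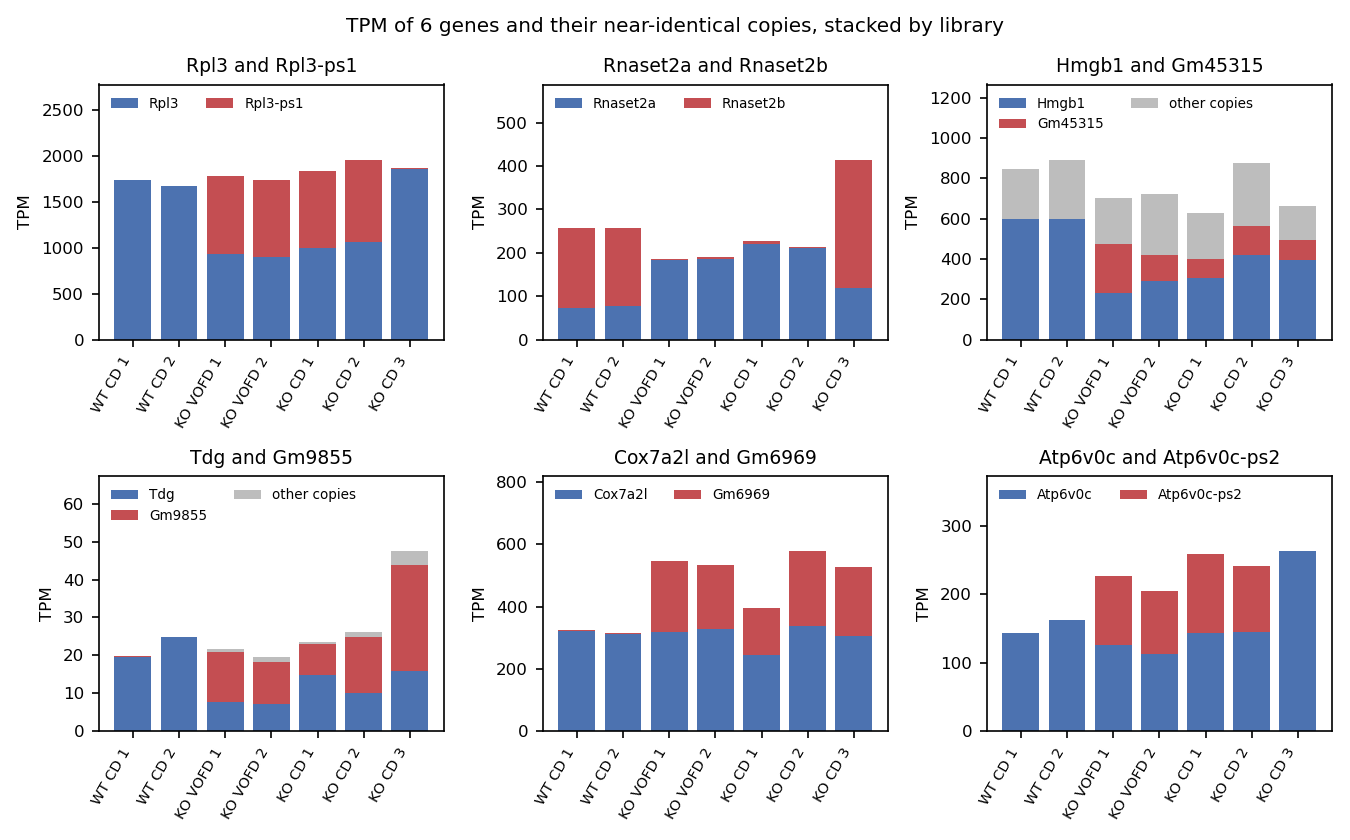
TPM by library of 6 genes (blue) stacked with a near-identical copy (red) and, for Hmgb1 and Tdg, further copies (grey), for 2 wild type, 2 fertile knockout and 3 infertile knockout libraries. For Rpl3 the stack stays between 1671 and 1956 TPM while its split differs, with Rpl3-ps1 near 0 in both wild type libraries and in infertile knockout library 3.

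With the copies of each family summed before the test, a setting chosen after the data were seen, 3 of 14299 genes and families were called. Copies that were not tested on their own were not joined to a family. Of the 29 genes, 23 lay in 16 families of 2 or more genes, and 0 of these families passed (limma, smallest adjusted p = 0.128). An unadjusted p under 0.05 was reached by 6 of the 16, beside 767 of all 14299. Sums over the 16 families differed by -0.45 to 0.75 on the log2 scale. The families were picked through a called member, so these counts do not show that summing removed the differences. The 3 that passed were the pseudogene Gm9825 (0.202 and 0 TPM in wild type, 31.6 and 32.8 TPM in fertile knockout), the unnamed model AC134468.1 (0 and 0 against 5.45 and 4.79 TPM) and the immunoglobulin segment Ighv1-62-1 (0 and 0 against 3.89 and 4.84 TPM). These 3 were named after their values were seen, and their wild type levels were listed at or near 0.

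The infertile knockout libraries did not all side with the fertile ones in these genes. On the log2 scale 24 of the 29 genes were nearer to the fertile knockout mean than to the wild type mean in infertile knockout library 1, 22 in library 2 and 10 in library 3. Rpl3-ps1 was at 836, 896 and 2.91 TPM in infertile knockout libraries 1, 2 and 3, and Rnaset2b at 6.74, 1.64 and 295 TPM. Library 3 thus lay near or above the wild type levels for both, while libraries 1 and 2 lay with fertile knockout. Gm6969, at 152, 239 and 224 TPM, and Gm45315, at 96.3, 144 and 98.1 TPM, were instead high in all 3. The genotype label of library 3 could not be checked, since the targeted genes were near 0 in every library. How reads that match more than 1 copy were assigned is not stated in the sources used here, and its part in these differences was not tested.

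Ly6d was the only called protein coding gene with no annotated near-identical copy and no overlapping gene. It encodes a surface protein of the Ly6 family, known from keratinocytes and early B cells (ENSMUSG00000034634.7, chromosome 15, 74762056 to 74763620). It was at 4.69 and 2.90 TPM in wild type and at 15.8 and 21.03 TPM in fertile knockout, and the infertile knockout libraries were at 8.08, 1.84 and 1.98 TPM. Both fertile knockout libraries thus stood above all other 5. The rise was 2.03 on the log2 scale (SE 0.25, limma adjusted p = 0.0360). It was lost without wild type library 1 (0.205) or library 2 (0.314) and passed in 8 of 16 alternative settings, with adjusted p from 1.17e-09 to 1.00. Fits in which every gene took the common spread of all genes were among these 16. The summed level of 13 lymphocyte genes was 17.1 and 17.7 TPM in wild type and 16.5 and 17.1 TPM in fertile knockout. In infertile knockout libraries 1, 2 and 3 it was 25.1, 78.0 and 64.6 TPM. The summed level of 10 oviduct epithelium genes was 15.4 and 32.7 TPM in wild type and 19.9 and 66.9 TPM in fertile knockout. In infertile knockout libraries 1, 2 and 3 it was 33.3, 28.9 and 406 TPM, so the library with the highest oviduct sum had Ly6d at 1.98 TPM. The part of either tissue in the Ly6d difference was not tested.

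Over all tested genes, called ones included, 162 had groups that did not overlap and a fold change of at least 1 on the log2 scale, 98 higher (0.666%) and 64 lower (0.435%) in fertile knockout. The count was 286 without wild type library 1, 317 without fertile knockout library 1 and 244 without fertile knockout library 2. Lig1, the DNA ligase of replication, came closest to the threshold among the named genes that missed it, at 12.7 and 16.7 TPM in wild type and 4.60 and 3.89 TPM in fertile knockout (log2 fold change -1.57, SE 0.21, limma adjusted p = 0.0579). In the infertile knockout it was at 16.2, 14.8 and 37.6 TPM, so both fertile knockout libraries were the lowest of the 7. Of 19 proliferation genes 0 were called and 0 had an unadjusted p under 0.05, beside 0.197% and 5.43% of all tested genes. Their median of 0.02 lay between -0.10 without wild type library 1 and 0.17 without wild type library 2. Lig1 passed in 7 of 16 alternatives (adjusted p from 1.73e-05 to 1.00), among them those without fertile knockout library 1 (8.85e-04) or library 2 (0.00840), fits in which every gene took the common spread. It was 0.244 without wild type library 1 and 0.314 without wild type library 2.

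Further genes named on the lower side, none past the threshold, included Tnfrsf12a, the receptor gene for the cytokine TWEAK, at 108 and 116 TPM in wild type and 63.1 and 38.4 TPM in fertile knockout (-1.17, SE 0.22, limma adjusted p = 0.225). Ccn1, a matrix-associated signalling protein gene, was at 28.2 and 46.8 TPM against 15.5 and 15.7 TPM (-1.17, adjusted p = 0.266). Sfn, the 14-3-3 sigma gene, was at 19.1 and 8.15 TPM against 5.06 and 5.93 TPM (adjusted p = 0.721). The remaining lower genes were the homeobox gene Cphx3, the major urinary protein gene Mup22, the crystallin gene Crygn, the meiotic crossover gene Ccnb1ip1, the phosphodiesterase gene Pde2a and the mitochondrial leucyl-tRNA synthetase gene Lars2, with adjusted p from 0.0862 to 0.853. Several of these cannot be separated from neighbours or copies: Ccnb1ip1 overlaps the RNase P RNA gene Rpph1 on the same strand, and Cphx3, Mup22, Sfn and Pde2a have near-identical copies. Wild type libraries 1 and 2 were at 4.06 and 12.3 TPM for Cphx3, 13.1 and 2.87 TPM for Mup22 and 12.3 and 50.2 TPM for Ccnb1ip1. They were at 2.91 and 8.87 TPM for Pde2a, 77.5 and 255 TPM for Lars2 and 8.42 and 7.13 TPM for Crygn. All but Crygn thus differed widely within wild type.

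On the higher side, Insl3, a peptide hormone gene of theca cells that overlaps Jak3 on the same strand, was at 6.58 and 8.23 TPM in wild type and 19.1 and 16.7 TPM in fertile knockout (log2 fold change 1.17, SE 0.19, limma adjusted p = 0.139). Infertile knockout libraries 2 and 3 were at 16.7 and 18.2 TPM and library 1 at 7.01 TPM. Adcyap1, the gene of the neuropeptide PACAP, was at 1.29 and 3.27 TPM in wild type, 13.3 and 6.11 TPM in fertile knockout and 3.89, 0.0611 and 0.287 TPM in infertile knockout (adjusted p = 0.421 for fertile knockout). Adgrg7, an adhesion receptor gene, was at 4.31 and 5.58 TPM against 12.5 and 12.0 TPM (adjusted p = 0.174). Svs5, known as a seminal vesicle secretory protein gene, was at 7.80 and 6.88 TPM against 13.9 and 18.0 TPM (adjusted p = 0.251). The glycosyltransferase genes Mgat4c and St6galnac2 and the gene Bend4 also met the rule, with adjusted p between 0.266 and 0.308.

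The other 6 genes named as higher were 5 of fat metabolism and Cox8b. Acss2, which makes acetyl-CoA from acetate, was at 8.52 and 9.33 TPM in wild type and 17.8 and 27.4 TPM in fertile knockout (1.22, SE 0.23, limma adjusted p = 0.225). Thrsp, a lipogenesis regulator gene, was at 34.7 and 13.9 TPM against 67.9 and 101 TPM (1.86, SE 0.38, adjusted p = 0.287). Fasn, the fatty acid synthase gene, was at 61.2 and 41.8 TPM against 85.7 and 142 TPM (1.11, SE 0.26, adjusted p = 0.419). The fatty acid activating enzyme gene Acsl1, the glycerol-3-phosphate dehydrogenase gene Gpd1 and Cox8b, a muscle and brown fat form of a cytochrome c oxidase subunit gene, had log2 fold changes of 1.33, 1.70 and 1.72 (adjusted p = 0.425, 0.523 and 0.419). None of the 6 passed the threshold.

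Pathway and cell type lists were described by counts beside those of all genes, without a test of the list. Over all 14721 genes the median log2 fold change was 0.08 and 65.5% were positive, 551 genes (3.74%) were higher and 248 (1.68%) lower at an unadjusted p under 0.05, and the groups did not overlap in 3610 genes higher (24.5%) and 1458 lower (9.9%). With median-of-ratios scaling the split at an unadjusted p under 0.05 was 529 higher and 574 lower, and with quantile normalisation it was 532 and 567. None of the members of the 35 lists was called over all genes by limma, beside 0.197% of all tested genes. Every list value below thus describes genes that did not pass on their own. The median of all genes was itself -0.03 without wild type library 1 and 0.19 without wild type library 2, so list medians without a library are read beside these. Fewer cells of a type and less RNA per cell cannot be told apart in whole ovaries.

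**Figure D3:**
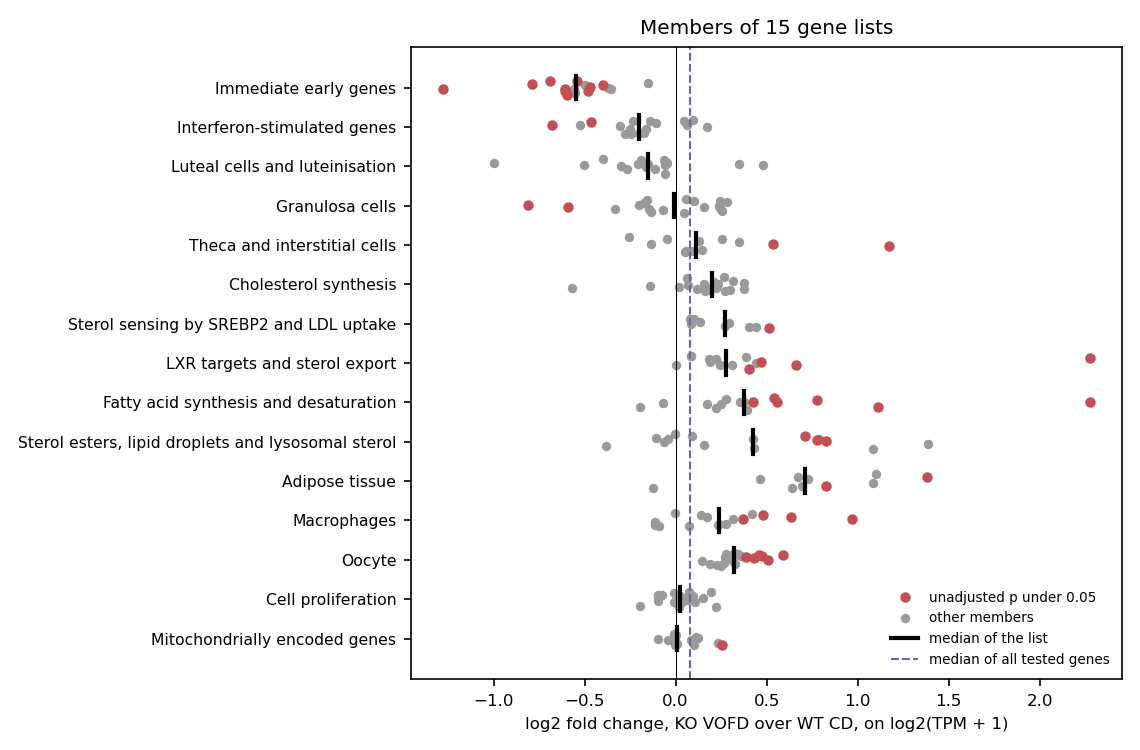
Log2 fold change (fertile knockout over wild type) of the tested members of 15 gene lists. Each point is a gene, red at an unadjusted p under 0.05, the black bar is the list's median and the dashed line the median of all tested genes at 0.08. Immediate early genes lie left of 0 in 16 of 16 and oocyte genes right of it in 21 of 21.

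Immediate early genes, which growth factors and hormones switch on within minutes, had the lowest median of the lists. Of 16 tested members 16 were negative, with a median of -0.55. An unadjusted p under 0.05 was reached by 10, all lower, beside 1.68% of all genes. The groups did not overlap in 14, all lower, beside 9.9% of all genes. Nr4a1, an orphan nuclear receptor gene induced by luteinising hormone, was at 24.4 and 22.9 TPM in wild type and 10.7 and 7.83 TPM in fertile knockout (log2 fold change -1.28, SE 0.20, limma adjusted p = 0.103). Ier2 was at 34.3 and 40.4 TPM against 24.5 and 18.1 TPM, and Junb, an AP-1 subunit gene, at 26.4 and 30.8 TPM against 19.5 and 17.2 TPM. Ier3 was at 35.8 and 35.9 TPM against 23.5 and 23.2 TPM (-0.60, SE 0.14, adjusted p = 0.419). In each of these genes both fertile knockout libraries lay below both wild type ones. In infertile knockout Nr4a1 was at 26.3, 33.0 and 17.3 TPM, all above fertile knockout, whereas Ier3 was at 26.8, 20.8 and 30.8 TPM, on both sides of it. The list's median stayed negative in every setting, between -0.69 and -0.37, with the latter without wild type library 2. Scaling did not alter the signs, with 16 of 16 negative under median-of-ratios and quantile scaling.

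**Figure D4:**
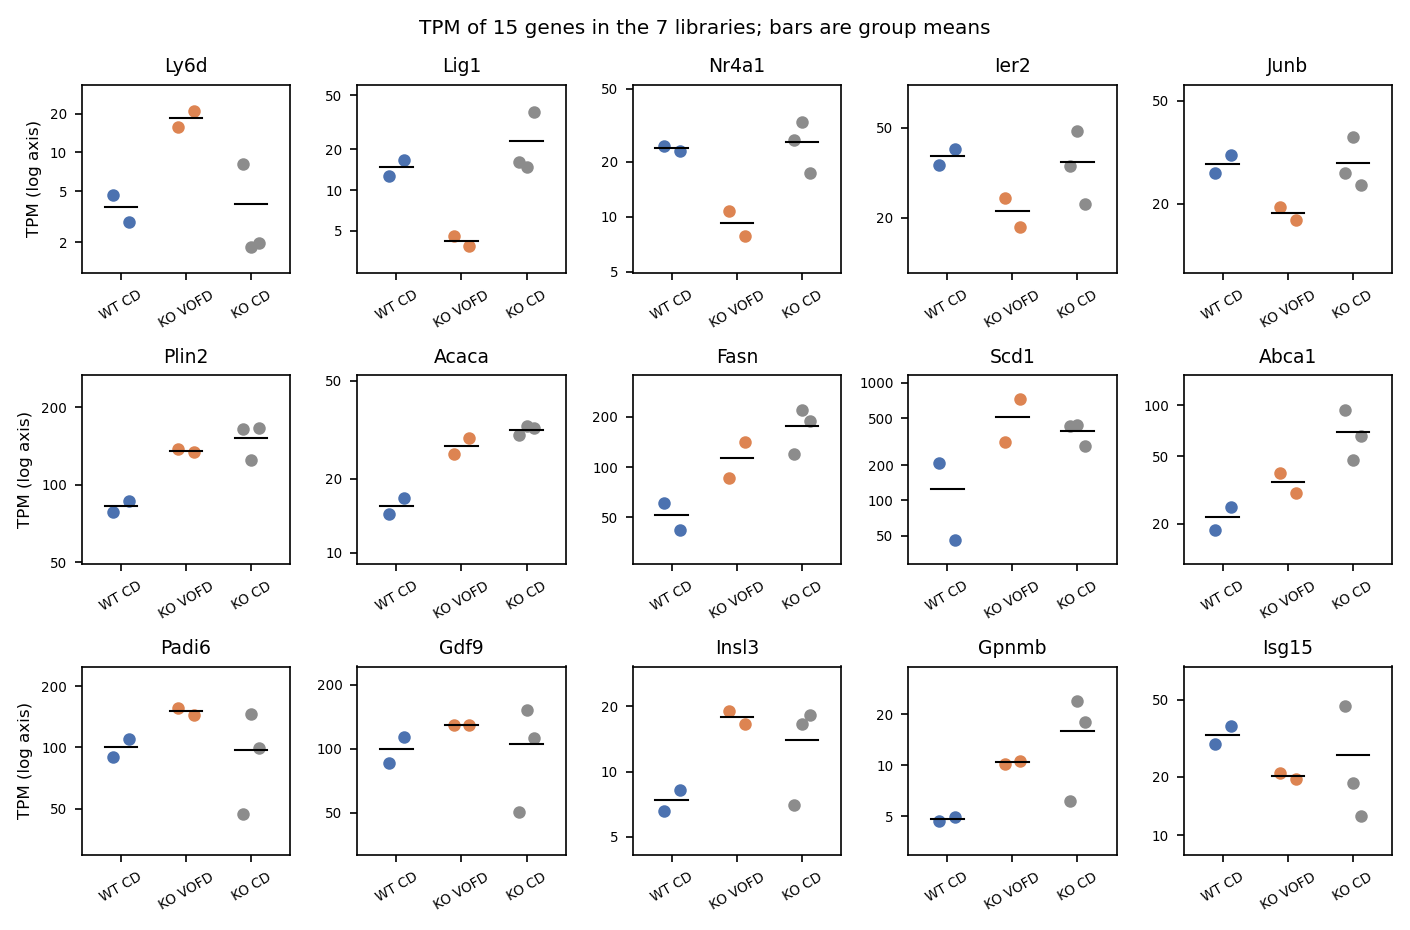
TPM on log axes of 15 genes in wild type (blue, 2 libraries), fertile knockout (orange, 2) and infertile knockout (grey, 3), with bars at the group means. Nr4a1, Lig1 and Ly6d in fertile knockout lie outside the range of the other 5 libraries, while Plin2, Acaca and Fasn in fertile knockout lie above wild type.

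Of 15 genes of fatty acid synthesis and desaturation 13 were positive, with a median of 0.37. An unadjusted p under 0.05 was reached by 6, all higher, beside 3.74% of all genes. Acaca, the acetyl-CoA carboxylase gene that commits carbon to fatty acids, was at 14.3 and 16.6 TPM in wild type and 25.2 and 29.3 TPM in fertile knockout (log2 fold change 0.78, SE 0.17, limma adjusted p = 0.350). In infertile knockout it was at 29.97, 32.9 and 32.3 TPM, so both knockout groups lay above both wild type libraries. Scd1, the stearoyl-CoA desaturase gene, was at 206 and 45.7 TPM against 312 and 723 TPM (2.27, SE 0.65, adjusted p = 0.612), with 430.2, 438 and 292 TPM in infertile knockout. Acsl3, an acyl-CoA synthetase gene of lipid droplets, was at 16.0 and 18.5 TPM against 25.5 and 26.1 TPM (adjusted p = 0.613). The list's median was 0.17 without wild type library 1 and 0.58 without library 2.

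Of 15 sterol ester, lipid droplet and lysosomal sterol genes 10 were positive (9 with median-of-ratios scaling), with a median of 0.43. An unadjusted p under 0.05 was reached by 3, all higher, beside 3.74% of all genes. Plin2, the lipid droplet coat protein gene found in steroidogenic cells, was at 78.6 and 86.3 TPM in wild type, 138 and 133 TPM in fertile knockout and 164, 125 and 166 TPM in infertile knockout. Its log2 fold change in fertile knockout was 0.71 (SE 0.12, limma adjusted p = 0.160), and all 5 knockout libraries stood above both wild type ones. Lipe, the hormone-sensitive lipase gene, was at 17.7 and 17.4 TPM against 23.6 and 42.8 TPM, and the fatty acid uptake gene Cd36 at 60.6 and 43.6 TPM against 68.6 and 115 TPM. The list's median was 0.20 without fertile knockout library 2 and 0.23 without wild type library 1.

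Markers of fat tissue differed between libraries of the same group and moved with many of these lipid genes. The summed level of 12 adipose genes was 698 and 255 TPM in wild type, 551 and 1210 TPM in fertile knockout and 2964, 2056 and 1272 TPM in infertile knockout. Of 10 tested, 9 were positive with a median of 0.71, which was 1.51 without wild type library 1, 1.28 without fertile knockout library 1, 0.36 without fertile knockout library 2 and 0.17 without wild type library 2. Adipoq, made by fat cells, was at 67.4 and 17.5 TPM in wild type and 38.2 and 87.4 TPM in fertile knockout, so the groups overlapped, and the brown fat gene Ucp1 was listed at 0 in all 4. Scd1, Thrsp, Fasn, Gpd1, Acsl1 and Cd36 were, among the 4 fertile libraries, lowest in wild type library 2 and highest in fertile knockout library 2, as the adipose sum was. Plin2 and Acaca were instead slightly lower in wild type library 1 than in library 2. Acaca was still highest of the 4 in fertile knockout library 2, as the adipose sum was, and Plin2 in fertile knockout library 1. The part of fat tissue in these differences was not tested.

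Among LXR targets and sterol export genes 13 of 14 were positive, with a median of 0.28 (11 positive with median-of-ratios and 12 with quantile scaling). An unadjusted p under 0.05 was reached by 4, all higher, beside 3.74% of all genes. Abca1, a cholesterol exporter gene, was at 18.5 and 25.2 TPM in wild type, 39.6 and 30.5 TPM in fertile knockout and 93.2, 47.7 and 66.0 TPM in infertile knockout (log2 fold change 0.66 in fertile knockout, SE 0.21, limma adjusted p = 0.684). Apoe, the apolipoprotein E gene, was at 923 and 925 TPM against 1352 and 1103 TPM in fertile knockout, with 1259, 1790.5 and 2299 TPM in infertile knockout. Pltp, a phospholipid transfer protein gene, was at 23.9 and 21.7 TPM against 32.9 and 31.1 TPM. In infertile knockout Pltp was at 26.8, 23.2 and 57.9 TPM, on both sides of fertile knockout. For Abca1 and Apoe the fertile knockout levels lay above wild type and below the infertile knockout means of 69.0 and 1783 TPM. For Apoe, fertile knockout library 1 still stood above infertile knockout library 1, so those groups overlapped.

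Cholesterol synthesis genes showed no difference that held across libraries. Their median was 0.20, with 18 of 20 positive (15 with either other scaling) and 0 at an unadjusted p under 0.05. The median changed sign to -0.13 without wild type library 1 and was 0.43 without wild type library 2 and 0.06 without fertile knockout library 1. Sc5d, a late desaturase of the pathway, was at 55.6 and 72.9 TPM in wild type and 87.5 and 78.4 TPM in fertile knockout (limma adjusted p = 0.901), against 35.8, 34.9 and 41.0 TPM in infertile knockout. Of 9 tested genes of SREBP2 sensing and LDL uptake 9 were positive with a median of 0.27, which was 0.02 without wild type library 1 and 0.48 without wild type library 2, and 7 were positive with median-of-ratios scaling. Insig1, the retention protein gene that holds SREBP2 back, was at 38.2 and 55.1 TPM against 64.0 and 67.9 TPM (adjusted p = 0.818), with 30.8, 36.3 and 47.0 TPM in infertile knockout.

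Oocyte genes were positive in 21 of 21, beside 65.5% of all genes, with a median of 0.32. An unadjusted p under 0.05 was reached by 6, all higher, beside 3.74% of all genes. The groups did not overlap in 19, all higher, beside 24.5% of all genes. Padi6, a gene of the oocyte's cytoplasmic lattices, was at 90.1 and 109.8 TPM in wild type and 156 and 144 TPM in fertile knockout (log2 fold change 0.59, SE 0.14, limma adjusted p = 0.416). Npm2, an oocyte chromatin factor gene, was at 46.2 and 46.5 TPM against 67.0 and 65.6 TPM, the zona pellucida gene Zp2 at 78.6 and 94.7 TPM against 123 and 111 TPM, and Nobox, an oocyte transcription factor gene, at 12.0 and 14.2 TPM against 17.2 and 20.0 TPM. All 21 stayed positive with both other scalings, and the median lay between 0.22 and 0.43 over all settings. Infertile knockout libraries spanned a wider range, with Padi6 at 47.1, 146 and 99.0 TPM.

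Somatic ovarian cell lists held no called gene, beside 0.197% called over all tested genes. Of 18 granulosa genes 9 were positive, with a median of -0.01 that lay between -0.10 without fertile knockout library 2 and 0.19 without fertile knockout library 1. Of 17 luteal genes 15 were negative, also under both other scalings, with a median of -0.15 and 0 at an unadjusted p under 0.05. The luteal median was -0.54 without wild type library 1, 0.24 without wild type library 2, -0.42 without fertile knockout library 1 and 0.07 without fertile knockout library 2. Among granulosa genes Ihh, a hedgehog ligand gene, was at 18.2 and 28.1 TPM in wild type and 12.7 and 12.1 TPM in fertile knockout (-0.81, SE 0.23, limma adjusted p = 0.575). Inhbb, the inhibin and activin beta-B subunit gene, was at 126 and 105 TPM against 61.0 and 94.1 TPM (adjusted p = 0.798). In infertile knockout libraries 1, 2 and 3 Ihh was at 7.495, 55.9 and 57.3 TPM and Inhbb at 67.7, 406 and 441 TPM. In theca and interstitial cells Aldh1a1, a retinaldehyde dehydrogenase gene, was at 1191 and 1289 TPM against 1865 and 1732 TPM (0.54, SE 0.10, adjusted p = 0.242), while 9 of 12 genes of that list were positive with a median of 0.11, which was -0.01 without wild type library 1, 0.29 without wild type library 2 and 0.17 without fertile knockout library 2. Srd5a2, a steroid 5-alpha reductase gene, was at 25.0 and 27.1 TPM against 35.7 and 40.0 TPM (adjusted p = 0.612), with 15.3, 5.01 and 6.33 TPM in infertile knockout.

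Of 16 tested macrophage genes 12 were positive (11 with median-of-ratios scaling), and their median was 0.24. An unadjusted p under 0.05 was reached by 4, all higher, beside 3.74% of all genes. Gpnmb, a gene of lipid-laden macrophages, was at 4.69 and 4.94 TPM in wild type, 10.2 and 10.6 TPM in fertile knockout and 6.13, 23.9 and 17.9 TPM in infertile knockout (0.97 in fertile knockout, SE 0.19, limma adjusted p = 0.242). Trem2, a lipid receptor gene of macrophages, was at 11.3 and 11.3 TPM against 15.9 and 20.7 TPM. Interferon-stimulated genes had a median of -0.20 with 13 of 17 negative, and Isg15, a ubiquitin-like antiviral gene, was at 29.7 and 36.4 TPM against 20.9 and 19.4 TPM (-0.68, SE 0.17, adjusted p = 0.434). The macrophage median was 0.11 without wild type library 1, 0.38 without wild type library 2 and 0.10 without fertile knockout library 1. The interferon median was -0.31 without wild type library 1 and -0.10 without wild type library 2.

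Genes called in the infertile knockout are given here with their levels in the fertile one. Infertile knockout against wild type, fitted over 15117 genes, had 25 calls (0.165%), of which 14 were protein coding. In fertile knockout the 95% interval included 0 for 11 of these 14, while over all tested genes 5.43% had an unadjusted p under 0.05, at which the interval leaves out 0. An interval that includes 0 does not show a level like wild type, since some were wide. Ces2a was at 12.0 and 20.8 TPM in wild type and 18.3 and 1.73 TPM in fertile knockout (interval -3.05 to 0.62). C3 was at 48.2 and 38.4 TPM against 41.9 and 130 TPM (interval -0.28 to 1.81). The comparison shares its wild type libraries with the one above, so values are set side by side only, and the genes given here were picked from the 14 after their values were seen. Ptgfr, which encodes the luteal receptor for prostaglandin F, was at 129 and 259 TPM in wild type, 193 and 133 TPM in fertile knockout and 3.12, 3.22 and 6.17 TPM in infertile knockout. Its log2 fold change in fertile knockout was -0.19 with a 95% interval of -0.93 to 0.55. Akr1c18, which inactivates progesterone, was at 165 and 238 TPM, at 128 and 596 TPM in fertile knockout, and at 7.79, 1.54 and 1.62 TPM in infertile knockout. The interval of its difference in fertile knockout, -0.93 to 1.89, leaves room for changes of either sign.

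S100a4, a calcium-binding protein gene, was at 171 and 139 TPM in wild type, 116 and 141 TPM in fertile knockout and 37.1, 20.8 and 40.3 TPM in infertile knockout (-0.27 in fertile knockout, interval -0.63 to 0.09). Ramp1, a receptor activity modifying protein gene, was at 26.9 and 36.5 TPM, 21.7 and 29.3 TPM in fertile knockout and 4.78, 3.81 and 2.72 TPM in infertile knockout (-0.30, interval -0.80 to 0.19). The ion channel gene Kcnt1 was at 4.07 and 6.21 TPM, 7.92 and 4.44 TPM in fertile knockout and 22.3, 20.2 and 22.5 TPM in infertile knockout. For these 3 genes and Ptgfr, each infertile knockout library stood outside the range of the 4 fertile ones. The separation from wild type follows from how the genes were picked.

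For 3 of the 14 genes the interval in fertile knockout did not include 0. Cox8b was at 2.69 and 0.443 TPM in wild type, 6.65 and 6.58 TPM in fertile knockout and 21.1, 24.2 and 15.3 TPM in infertile knockout, a log2 fold change of 1.72 in fertile knockout with an interval of 0.76 to 2.69. Ifi44l, an interferon-induced gene, was at 0.139 and 0 TPM, 5.71 and 2.32 TPM in fertile knockout and 4.21, 3.16 and 3.99 TPM in infertile knockout (limma adjusted p = 0.139 in fertile knockout). Cryba4, a crystallin gene, was at 17.6 and 24.3 TPM, 15.9 and 7.37 TPM in fertile knockout and 2.85, 0.954 and 0.988 TPM in infertile knockout, with an interval of -1.64 to -0.09. None of the 3 was called in fertile knockout.

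**Figure D5:**
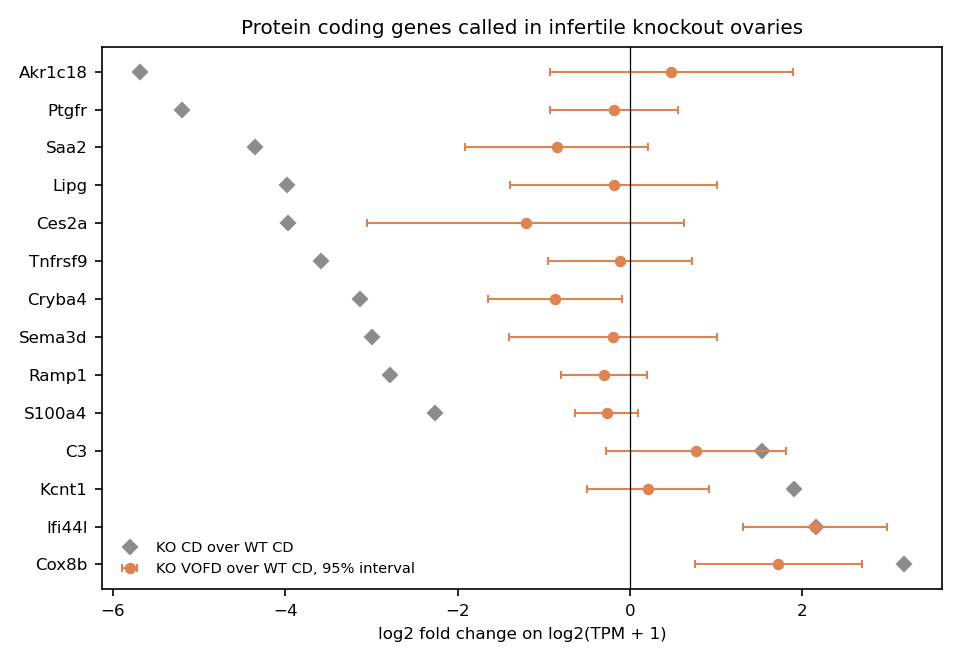
Log2 fold changes on log2(TPM + 1) of the 14 protein coding genes called in infertile knockout ovaries, for infertile knockout over wild type (grey diamonds) and fertile knockout over wild type (orange, with 95% intervals). Both use the same 2 wild type libraries; the intervals of Cox8b, Ifi44l and Cryba4 lie to 1 side of 0.

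Around the targeted genes on chromosome 17, 68 genes within 10 Mb were tested, 0 were called by limma and 6 had an unadjusted p under 0.05 (8.82%), beside 0.197% called and 5.43% at an unadjusted p under 0.05 over all tested genes. Tmem178 was at 38.0 and 41.0 TPM in wild type and 72.5 and 59.3 TPM in fertile knockout, with 35.6, 15.2 and 22.0 TPM in infertile knockout (0.72, SE 0.15, adjusted p = 0.311, the smallest of the 68). It was named for that p after its value was seen. Adcyap1, named above among the higher genes, also lies in this window, at 93199017 to 93206537 (limma adjusted p = 0.421).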

How the data were processed

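RNA from 7 ovary libraries was sequenced, and the authors deposited 1 table of TPM values per gene, already scaled to gene length and library total. Per the submitters' processing notes the reads were handled on GRCm38, while no source used here names the aligner or the program behind the TPM values. Library depth cannot be recovered from TPM, so no counting interval is given. Groups came from the sample titles. Of 34866 gene IDs, 34652 matched GENCODE M21 annotation. Genes with at least 1 TPM in at least 2 of the 4 libraries compared were tested with limma 3.58.1 (R 4.3.3) on log2(TPM + 1), 2-sided, letting the variance prior follow intensity, with Benjamini-Hochberg adjustment at 0.05, after the procedure was tested on simulated data. Infertile knockout against wild type was fitted separately in the same way. Intervals are 95% intervals from limma. Near-identical copies were found with blastn 2.17.0, by aligning transcripts of tested genes to those of all genes. They had 95% identity over 80% of the shorter transcript. For families, each tested non-coding copy joined its best protein coding match. Protein coding genes joined each other only where the match also spanned 80% of the longer transcript. Copies that were not tested stayed outside, so the sums do not cover every annotated copy. Genes named in each direction were up to 15 that passed, had groups apart and reached a mean of 5 TPM in whichever group was higher, filled up with non-overlapping genes of at least 1 on the log2 scale by smallest p, and up to 4 genes per list by smallest p, leaving out unnamed models, pseudogenes, small RNAs, immunoglobulin and ribosomal protein genes. Near-identical copies, the genes beside them and those called in infertile knockout fall outside that rule and were named after their values were seen. The comparison, the members and the gene lists were chosen with earlier results of these data known. Alternatives varied the pseudocount (0.1 and 5), the filter, the scaling, the variance prior, the libraries and the treatment of copies.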

Additional observations from a re-analysis of the deposited data

How the results depend on the processing

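The count of 29 calls differed between settings. It was 4 with all 7 libraries in 1 fit, 45 with a robust variance prior, 6 with no filter on low values, 3 with near-identical copies summed and 8 with protein coding genes only, the last 2 settings being chosen after the data were seen. Leaving out 1 library gave between 5 and 214 calls. With the replicate number as a replicate block it was 210. The labels do not say that a number marks a shared litter, batch or day, and the deviations of same-numbered libraries correlated at -0.215, so the numbers are not read as pairs. In the replicate block fit and in those without a fertile knockout library every gene took the common spread of all genes. The 162 genes past 1 on the log2 scale without overlap became 325 with a pseudocount of 0.1, 56 with a pseudocount of 5, 75 at 5 TPM or more and 84 among protein coding genes, and 224 to 317 without 1 library. The count of 0 called list members became 14 with the replicate block, 2 with the robust prior and 0 to 21 without 1 library. The other alternatives left these counts within 1.5 times. Among list medians 419 values moved by less than the spread and 57 by more, and none of the called results reversed. Single genes kept their side of the threshold or their value in 2638 cases, lost the call in 124, gained it in 73 and moved in 25. TPM holds no depth, so what depth limits cannot be stated.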

Other observations

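None of the genes in the lists below was called by limma, beside 0.197% of all tested genes. Of 17 matrix genes the groups did not overlap in 3 higher and 3 lower, beside 24.5% higher and 9.9% lower over all genes, and their median of -0.04 was -0.24 without wild type library 1, 0.20 without wild type library 2, -0.22 without fertile knockout library 1 and 0.05 without fertile knockout library 2. Dcn, the decorin gene, was at 266 and 335 TPM in wild type and 425 and 412 TPM in fertile knockout (0.49, SE 0.14, limma adjusted p = 0.575). Timp1, a metalloproteinase inhibitor gene, was at 199.8 and 303 TPM in wild type and 149.9 and 172 TPM in fertile knockout, with 203, 29.3 and 32.2 TPM in infertile knockout. Of 10 smooth muscle and pericyte genes 5 were positive and 5 negative, with a median of 0.03 that changed sign in 5 settings. The contractile genes Tagln and Acta2 were at 378 and 441 TPM against 294 and 322 TPM, and at 254 and 292 TPM against 206 and 223 TPM, while the muscle filament gene Des was at 13.3 and 14.1 TPM against 14.9 and 18.3 TPM. Gpx4, which detoxifies lipid peroxides, was at 787 and 702 TPM in wild type and 564 and 589 TPM in fertile knockout (-0.37, SE 0.11, limma adjusted p = 0.650), within a list of 17 antioxidant genes whose median was 0.03, between -0.05 without wild type library 1 and 0.17 without wild type library 2.

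Of 14 tested hormone receptor genes 12 were positive (11 with median-of-ratios and 10 with quantile scaling), with a median of 0.19 that was 0.09 without wild type library 1, 0.41 without wild type library 2 and 0.30 without fertile knockout library 2. The growth hormone receptor gene Ghr was at 37.5 and 33.7 TPM in wild type and 46.9 and 53.6 TPM in fertile knockout, and the estrogen receptor gene Esr1 at 9.47 and 12.4 TPM against 15.0 and 18.1 TPM (limma adjusted p = 0.666 and 0.810). Of 14 steroid synthesis genes 10 were negative with a median of -0.06, which was 0.07 without wild type library 2, 0.02 without fertile knockout library 2 and -0.10 without fertile knockout library 1. Star, the cholesterol importer of mitochondria, overlapped between the groups at 223 and 378 TPM against 265 and 220.03 TPM.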
